A study of Mus musculus with 12 samples.

Results

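Whether glioma stem cells respond to doranidazole in the same way with and without oxygen was examined gene by gene, as the response to the drug in hypoxia minus the response to it in normoxia. A gene for which this difference is zero is additive, in that drug and oxygen shift its log2 signal independently of each other. The difference was estimated for all 22206 probe sets of a Clariom S Mouse array, on which a probe set is a group of short oligonucleotides that reports the transcripts of a gene. It is described here for the 19572 probe sets with 1 gene symbol, which stand for 19505 genes, and the other 2634 carry no symbol. The cells, GSC-H, are mouse glioma stem cells recovered from late-stage brain tumors, which arose from neural stem/progenitor cells that lack Ink4a/Arf and express an active form of H-Ras, so that all groups share these lesions and come from 1 line. Cells were exposed for 24 h to 3 mM doranidazole in hypoxia (1% O2), to phosphate-buffered saline (PBS) in hypoxia, to 3 mM doranidazole in normoxia (21% O2 in the labels) or to PBS in normoxia. Each group had 3 arrays, which the study describes as independent biological samples, all from 1 experiment. The p-values therefore rest on the spread within that experiment. In such bulk samples, fewer cells of a kind and less RNA per cell cannot be told apart.

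Doranidazole belongs to the 2-nitroimidazoles and was made to sensitize hypoxic tumor cells to radiation. Nitroimidazoles take up electrons from cellular reductases, and molecular oxygen takes these electrons back, so that reduced and reactive forms of such drugs accumulate mainly where oxygen is scarce. Low oxygen by itself stabilizes the hypoxia-inducible factors (HIFs), because the prolyl hydroxylases that mark the HIF alpha subunits for degradation use oxygen as a substrate, and HIFs then switch on glycolysis, pH control and angiogenesis. Other sensors answer to chemical stress, with NRF2 acting on oxidants and electrophiles and HSF1 on damaged proteins.

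Of the probe sets with 1 symbol, 2717 passed the test of the difference of responses, 966 with a more positive response in hypoxia and 1751 with a more negative one (limma over the 12 arrays, two-sided, adjusted p under 0.05 after Benjamini-Hochberg correction for all probe sets). Over all probe sets 13.5% passed, 5.02% in the positive and 8.5% in the negative direction. The split moved with scaling, to 1275 positive and 1388 negative calls when the arrays were quantile normalized. The group responsible was read from the 4 group means, a group being taken to depart where the gap from its mean to the nearest other mean exceeded the range of the other 3 means. Hypoxia with doranidazole departed for 1931 (71.1%) of the 2717, being higher than the other groups for 746 and lower for 1185. Hypoxia with PBS departed for 179 (6.59%), of which it was the highest group for 159. Normoxia with doranidazole departed for 117 (4.31%), of which it was the highest for 103, and normoxia with PBS departed for 17 (0.626%). No single group departed for 473. Among all probe sets with 1 symbol, called or not, the same rule picked hypoxia with doranidazole for 42.3%, hypoxia with PBS for 7.3%, normoxia with doranidazole for 7.57% and normoxia with PBS for 7.06%.

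**Figure D1:**
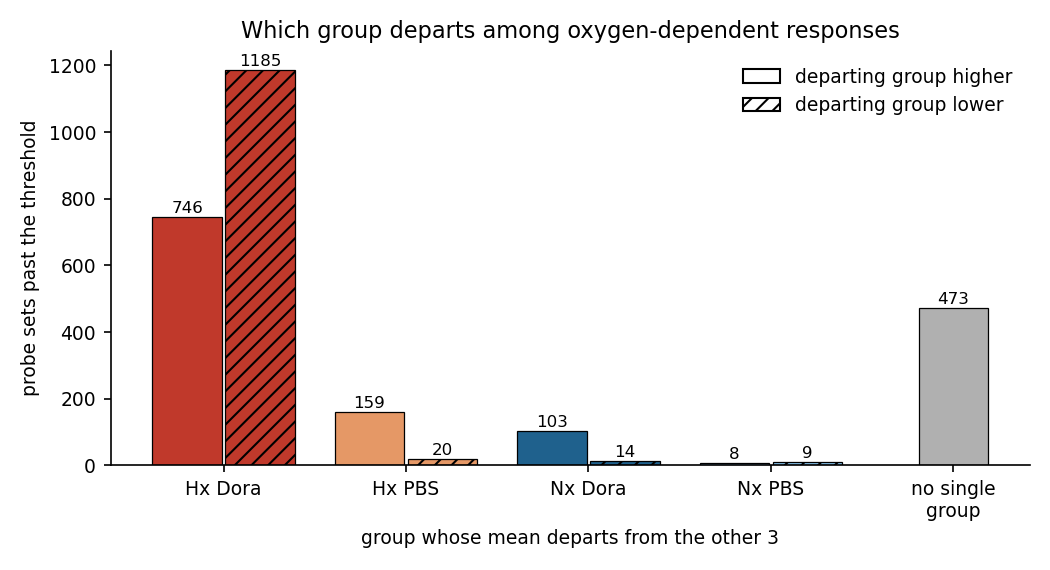
Number of probe sets with 1 symbol past the test of the difference of responses (y axis), by the group whose mean departs from the other 3 (x axis; Hx, hypoxia; Nx, normoxia; Dora, doranidazole), with plain bars where that group is higher and hatched bars where it is lower. The bars for hypoxia with doranidazole, 746 and 1185, are taller than the other 3 pairs, of which the tallest bar is 159 for hypoxia with PBS; the gray bar is the 473 with no single departing group.

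The arrays themselves were not separated by identical values or by depth, as arrays have none. The 3 hypoxia doranidazole arrays had a narrower spread of log2 signals than the others (SD over probe sets from 3.51 to 3.67, against 3.72 to 3.81 for the other 9 arrays), and dim and bright probe sets leaned in opposite directions. Where the other 9 arrays averaged under 4 on the log2 scale, 227 probe sets were called positive and 18 negative, and where they averaged over 12, 106 were positive and 446 negative. Replicate 3 of hypoxia with doranidazole lay nearest to the other groups, with a median shift from the hypoxia PBS mean of -1.36 over the negative calls, against -1.88 and -1.76 for replicates 1 and 2. Without that array the calls rose to 3873, those in the positive direction to 1455 and those in which hypoxia with doranidazole departs to 2904. The scaling between arrays used by the authors is not stated in the sources, and the part that this narrower spread plays in the results was not tested.

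As a check of the cells, the stem cell gene Nes had mean log2 signals of 13.76, 13.48, 13.17 and 12.80 in hypoxia with doranidazole, hypoxia with PBS, normoxia with doranidazole and normoxia with PBS. Other genes of this check, Sox2 (-3.99), Fabp7 (-4.17), Cd44 (-0.95) and Vim (-0.85), had a more negative response in hypoxia past the threshold. They averaged 10.87, 4.70, 15.65 and 18.26 in hypoxia with doranidazole, against 14.36, 10.58, 16.17 and 18.98 in hypoxia with PBS. The differences of Nes (-0.10) and Olig2 (-1.18) did not pass. Cdkn2a, the locus removed from these cells, had means from 2.10 to 2.31 in the 4 groups, under the 30th percentile of all probe sets. Olig2, a glial lineage factor, averaged 4.97 in hypoxia with doranidazole, 7.05 in hypoxia with PBS, 5.72 in normoxia with doranidazole and 6.62 in normoxia with PBS, and the drug lowered it in hypoxia by an estimate of -2.08 (adjusted p = 0.0044, limma). Of 10 markers of microglia and macrophages 7 had a mean under that percentile and 0 passed the test of the difference (limma, adjusted p).

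In the largest classes the rule for a departing group itself requires a response of larger size in hypoxia than in normoxia. The medians therefore only describe these sizes. For the 746 probe sets highest in hypoxia with doranidazole the median response was 1.60 in hypoxia and 0.02 in normoxia. For the 1185 probe sets lowest in that group it was -1.84 in hypoxia and 0.09 in normoxia. Over all probe sets, 27.7% differed between doranidazole and PBS in hypoxia, against 1.59% in normoxia. Likewise, 30% differed between hypoxia and normoxia when doranidazole was present, against 1.98% with PBS. Each comparison was adjusted on its own. Where few probe sets pass, as for the drug in normoxia or for hypoxia with PBS, a larger estimate is needed to pass. Counts of calls in 2 conditions, here and below, therefore do not compare sizes of response. Among the 2717 non-additive probe sets the estimates in hypoxia and normoxia had the same sign and were larger in hypoxia for 1042, had the same sign and were smaller in hypoxia for 15, and had opposite signs for 1660. Only 30 probe sets passed the threshold in both conditions with opposite signs. This count was 73 and 49 without replicate 3 of hypoxia with doranidazole or of hypoxia with PBS, and 3 to 19 without any normoxia array or without replicate 1 of hypoxia with PBS. Since log2 signals were compared, a difference of responses is a ratio of fold changes. On the linear scale the sign of the difference was the same for 2702 of the 2717 and opposite for 15.

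**Figure D2:**
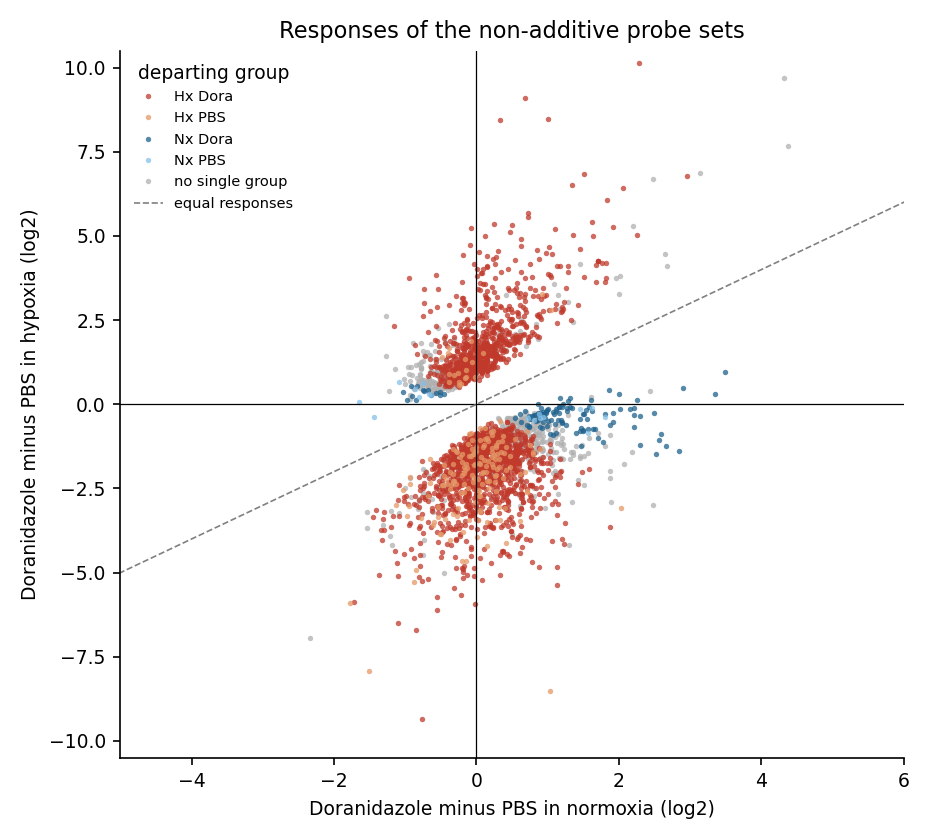
Doranidazole minus PBS in hypoxia (y axis, log2) against doranidazole minus PBS in normoxia (x axis, log2) for each of the 2717 probe sets past the test of the difference, colored by departing group. Most points lie near zero on the x axis and away from zero on the y axis, while those of normoxia with doranidazole (dark blue) lie near zero on the y axis; the dashed line marks equal responses.

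The largest positive difference belonged to Gadd45b, a stress-induced gene that acts upstream of p38 and JNK signaling. Its log2 signal was 13.97, 13.73 and 12.78 on the hypoxia doranidazole arrays, against 3.67, 4.96 and 4.55 with PBS in hypoxia, 4.68, 4.43 and 4.55 with doranidazole in normoxia, and 3.66, 3.83 and 4.13 with PBS in normoxia. Every array of hypoxia with doranidazole was thus far above the 9 others, which lay between 3.66 and 4.96. Doranidazole raised Gadd45b by 9.10 in hypoxia (adjusted p = 1e-08) and had an estimate of 0.68 in normoxia (adjusted p = 0.44), a difference of 8.42 (SE 0.48, 95% interval from 7.39 to 9.45, adjusted p = 1.18e-06, limma). Tlcd2, a membrane protein with a lipid-sensing domain, had the same shape, with means of 13.19 ± 0.66 in hypoxia with doranidazole, 4.75 ± 0.11 in hypoxia with PBS, 4.32 ± 0.25 in normoxia with doranidazole and 3.98 ± 0.10 in normoxia with PBS (SD, n = 3 each) and a difference of 8.10 (SE 0.38). Gsta2, a glutathione transferase of the alpha class whose close copies may share its probes, differed from both in that doranidazole also raised it in normoxia, by 2.29 (adjusted p = 0.032), against 10.14 in hypoxia, a difference of 7.86 (SE 0.66, adjusted p = 1.5e-05).

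Of 17 heat shock genes doranidazole raised 12 in hypoxia and 0 in normoxia (27.7% and 1.59% of all probe sets differed, in either direction). These genes encode chaperones that refold or hold damaged proteins and are switched on by HSF1. Of the 17, 11 responded more positively in hypoxia and 0 more negatively, against 5.02% and 8.5% of all probe sets, with a median difference of 1.40 (limma, adjusted p). The inducible Hsp70 gene Hspa1b read 14.92, 14.85 and 13.01 in hypoxia with doranidazole, against 5.83, 5.45 and 6.09 in hypoxia with PBS, 6.85, 6.64 and 6.39 in normoxia with doranidazole and 5.56, 5.00 and 6.29 in normoxia with PBS. The 3 arrays with drug in hypoxia stood alone, replicate 3 being the lowest of them. The difference was 7.46 (SE 0.64, adjusted p = 1.53e-05). Hspa1a, its near-identical neighbor with which it may share hybridization, had a difference of 4.84 (SE 0.55). The small heat shock protein Cryab (2.92), the Hsp40 cofactor Dnajb1 (2.07), Hsph1 (1.94, lost in 9 alternatives) and the Hsp90 gene Hsp90aa1 (1.14) followed in the same direction. HSF1 binds inverted nGAAn units, and one such pair, GAANNTTC searched on both strands, lay in 31.6% of the promoters of this list, taken as 250 bases before the start in RefSeq (GRCm38.p6), against 5.89% of all promoters. It is shown here for Hspa1b, whose start lies on the minus strand of chromosome 17 (chr17:34959309-34959368), with the match in capitals. A match of letters is a description and not a measured binding site.
Hspa1b: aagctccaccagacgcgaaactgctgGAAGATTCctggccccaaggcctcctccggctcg

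Targets of NRF2, the transcription factor that drives glutathione and quinone metabolism, included members that the drug raised in both conditions. Of 32 measured, doranidazole raised 29 in hypoxia and 13 in normoxia, and for 15 the response was more positive in hypoxia (0 more negative, median difference 1.56). Among all probe sets 27.7% differed with the drug in hypoxia and 1.59% in normoxia, in either direction. A more positive response in hypoxia was found for 5.02% of them. Osgin1, an oxidative stress growth inhibitor, read 11.48, 11.96 and 12.21 in hypoxia with doranidazole, 5.54, 5.78 and 4.76 in hypoxia with PBS, 6.54, 7.73 and 6.29 in normoxia with doranidazole and 5.22, 5.81 and 5.49 in normoxia with PBS. The normoxia doranidazole arrays were above the PBS arrays and far below hypoxia with drug. The estimate in normoxia was 1.35 (adjusted p = 0.098), and the difference 5.18 (SE 0.52, adjusted p = 4.62e-05). Txnrd1, the cytosolic thioredoxin reductase, rose by 4.12 in hypoxia and by 1.13 in normoxia (adjusted p = 0.029), a difference of 2.99 (SE 0.32). The glutathione reductase Gsr (3.43), the biliverdin reductase Blvrb (4.35), the aldehyde dehydrogenase Aldh3a1 (3.74) also had positive differences, as did, in a list of ferroptosis, iron and glutathione genes, the glutathione synthetase Gss (3.52). Nqo1, a quinone oxidoreductase, rose by 7.66 in hypoxia and 4.37 in normoxia, and its difference of 3.28 was near the threshold (95% interval from 1.16 to 5.41, adjusted p = 0.0432), which it missed in 10 alternatives, among them equal medians and array weights. The heme oxygenase Hmox1 and catalase (Cat) rose in both conditions and did not pass the test of the difference, with 2.06 (95% interval from -0.24 to 4.36) for Hmox1 and 0.53 (95% interval from -0.51 to 1.58) for Cat. The ferrireductase Steap3 rose by 3.46 in hypoxia (adjusted p = 0.0011) and had an estimate of 1.29 in normoxia (adjusted p = 0.42), but its difference of 2.17 missed the threshold as well (95% interval from 0.27 to 4.06, adjusted p = 0.128). The antioxidant element TGACNNNGC lay in 23.5% (8 of 34) of the promoters of the list, against 10.7% of all promoters. The stretch upstream of Txnrd1 that holds it is chr10:82859089-82859148 on the plus strand, with capitals for the match, here on the opposite strand.
Txnrd1: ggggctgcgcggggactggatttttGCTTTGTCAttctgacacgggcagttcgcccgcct

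Immediate early genes, which encode transcription factors and feedback proteins induced within minutes of a stimulus, are given here beside genes of RAS-ERK output. Doranidazole raised 20 of 28 immediate early genes in hypoxia and lowered 1, whereas of 15 genes of RAS-ERK output and feedback it raised 1 and lowered 10. In that comparison 27.7% of all probe sets passed, in either direction. Of the 28, 15 had a more positive response in hypoxia and 1 a more negative one (median difference 1.77), and hypoxia with doranidazole was the departing group for 15 of the 16. Among all probe sets 5.02% were more positive and 8.5% more negative, and this group departed for 71.1% of all calls. Junb, a subunit of AP-1, read 11.17, 11.41 and 10.99 in hypoxia with doranidazole, 6.03, 6.09 and 6.08 in hypoxia with PBS, 6.12, 6.82 and 6.16 in normoxia with doranidazole and 5.67, 5.90 and 6.13 in normoxia with PBS. No array outside hypoxia with drug reached 7 on the log2 scale, and the difference was 4.66 (SE 0.30, adjusted p = 2.92e-06). Atf3 (4.18), Egr1 (4.09), Arc (3.82), Ier5 (3.58), Nr4a2 (3.44), the mRNA-destabilizing Zfp36 (3.38), Egr2 (3.33), Fosb (2.94) and Fos (2.61) behaved alike, whereas Jun itself was lower, with a difference of -1.50. Of the 15 genes transcribed downstream of RAS-ERK as feedback or output, 10 had a more negative response in hypoxia and 0 a more positive one (median -1.85). Spry2, a Sprouty inhibitor of this pathway, read 8.97, 9.21 and 9.25 in hypoxia with doranidazole, against 11.99, 12.41 and 12.20 in hypoxia with PBS, 12.24, 12.26 and 11.99 in normoxia with doranidazole and 11.93, 12.32 and 12.01 in normoxia with PBS. Only the drug-treated hypoxic arrays were lower, and the other 3 groups overlapped, for a difference of -3.14 (SE 0.26, adjusted p = 1.34e-05). The ETS factors Etv1 (-3.01), Etv4 (-2.43) and Etv5 (-1.85), the ERK phosphatase Dusp6 (-2.89) and the inhibitors Spry1 (-3.39), Spry4 (-1.74), Spred1 (-1.82) and Spred3 (-1.95) also passed.

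Lists of the lysosome and the proteasome, which degrade cell components, differed in shape. In a list of lysosome and autophagy genes 10 of 28 had a more positive and 1, the lysosomal glucosaminidase Naglu (-2.46), a more negative response in hypoxia (median 0.89). Together this was 39.3%, against 13.5% of all probe sets, and hypoxia with doranidazole departed for all 11. Atp6v1h, a subunit of the vacuolar proton pump, read 12.95, 13.41 and 13.17 in hypoxia with doranidazole, while the 9 other arrays lay between 10.05 and 10.60, and its difference was 2.52 (SE 0.28, adjusted p = 8.61e-05). The ATG8 family member Gabarapl1 (3.40), Uvrag (2.59), the pump subunit Atp6v1c1 (2.04) and the autophagy kinase Ulk1 (2.03) were also more positive. Of 29 proteasome genes 11 passed (37.9%), all positive, with smaller differences, from 0.81 for Psma6, which lost its call in 15 alternatives, to 1.84 for Psmb3. Hypoxia with doranidazole departed for 4 of the 11 and no single group for 7, Psmb3 among them. Over the 29 the median response was 0.46 in hypoxia and -0.23 in normoxia, and the median of hypoxia minus normoxia with PBS was -0.41. The count of 11 depended on single arrays and on scaling, at 7 once array medians were equalized and at 5 to 7 without replicate 1 or 3 of normoxia with PBS, any normoxia doranidazole array, hypoxia PBS replicate 1 or 2, or hypoxia doranidazole replicate 1.

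**Figure D3:**
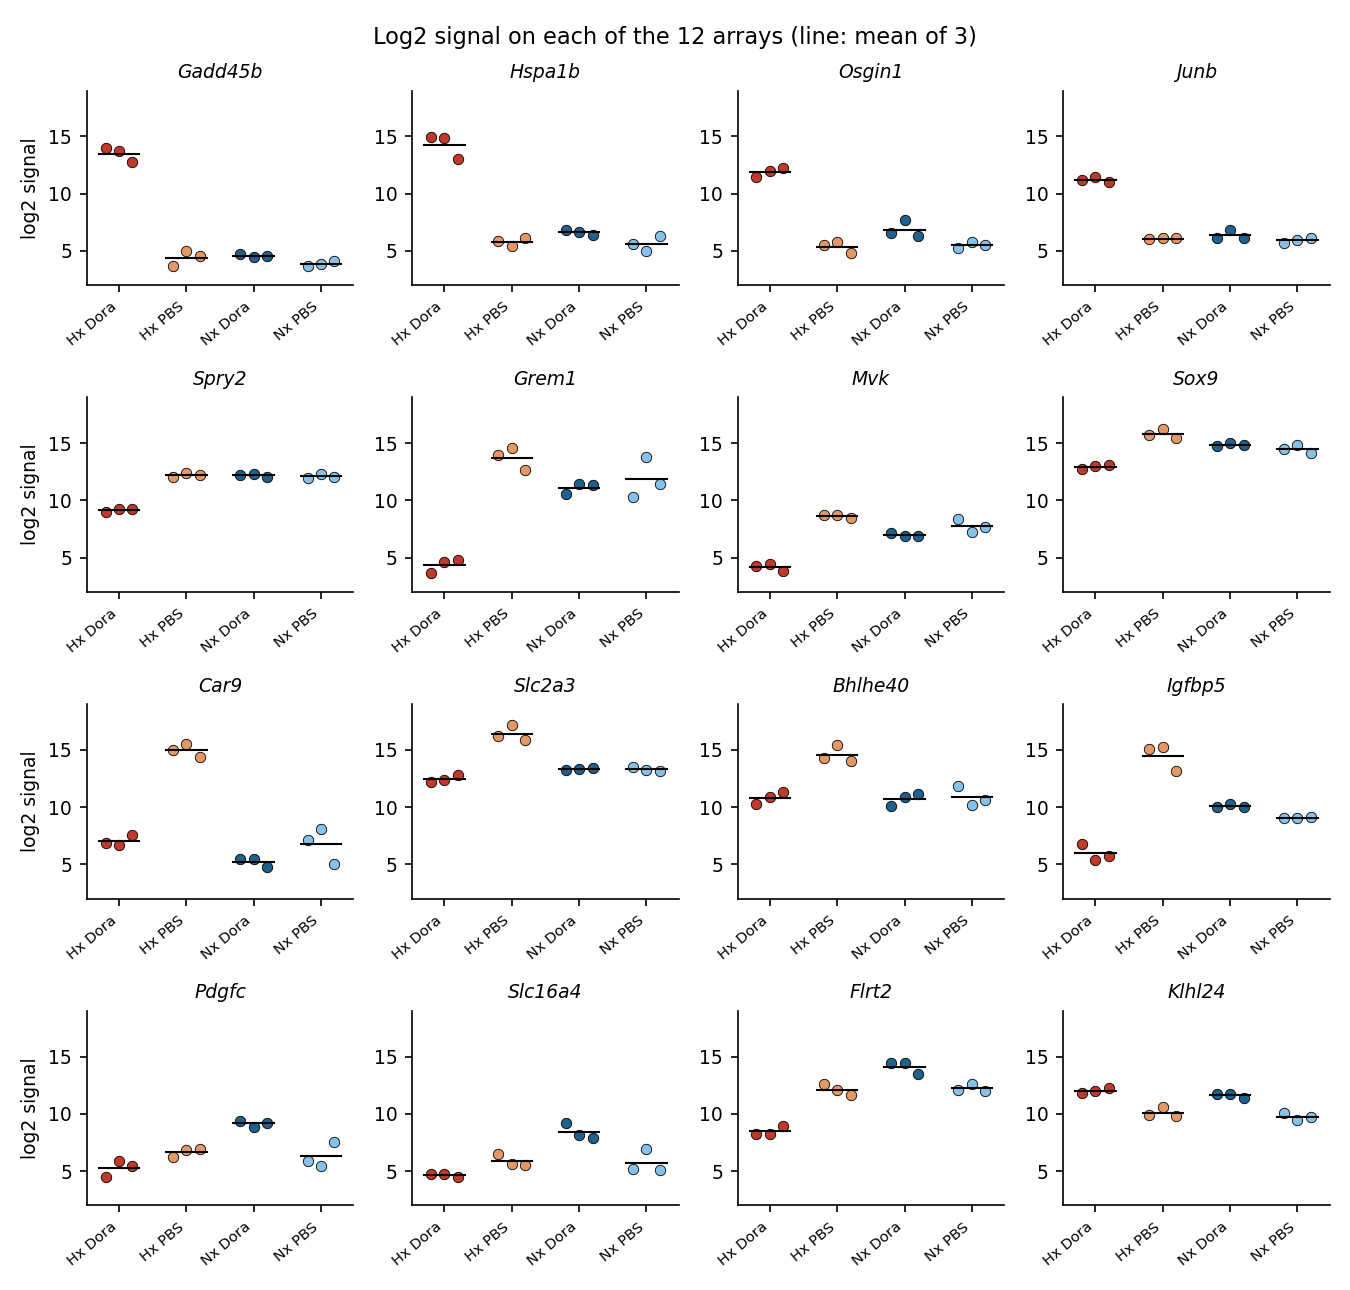
Log2 signal (y axis) of 16 genes on each of the 12 arrays (points), grouped as hypoxia with doranidazole (Hx Dora), hypoxia with PBS (Hx PBS), normoxia with doranidazole (Nx Dora) and normoxia with PBS (Nx PBS), with a line at each mean of 3. In the first pair of rows hypoxia with doranidazole stands apart, above the others for Gadd45b to Junb and below them for Spry2 to Sox9. In the third row hypoxia with PBS is the highest group, in the last row Pdgfc and Slc16a4 are highest in normoxia with doranidazole, Flrt2 moves oppositely in the 2 conditions, and Klhl24 is additive.

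Among the genes that only hypoxia with doranidazole lowered, Grem1, a secreted antagonist of bone morphogenetic proteins (BMPs), had the largest negative difference. It read 3.66, 4.58 and 4.80 in hypoxia with doranidazole, against 13.95, 14.57 and 12.61 in hypoxia with PBS, 10.51, 11.38 and 11.37 in normoxia with doranidazole and 10.32, 13.81 and 11.41 in normoxia with PBS. The drug-treated hypoxic arrays lay far below all others, and the PBS arrays in normoxia spread widely, and the difference was -8.60 (SE 1.03, adjusted p = 0.000154). The adhesion receptor Adgrl3 (-6.49, SE 0.43), which binds teneurins and FLRT proteins, and the synaptic adhesion protein Nlgn1 (-5.95, SE 0.38) came next. Grem1 belongs to a list of extracellular matrix and BMP pathway genes in which 18 of 39 had a more negative response in hypoxia and 0 a more positive one. The 18 are 46.2% of the list, against 8.5% of all probe sets in that direction. The median of this list was -0.67, and it was -1.79 over the 34 members that remain once dim probe sets are left out. Adamts9 (-5.91), Bmp2 (-5.46), tenascin C (Tnc, -4.52), Col3a1 (-4.04), Thbs2 (-3.67), Igfbp3 (-3.40) and fibronectin (Fn1, -2.81) were among them. For 13 of the 18 hypoxia with doranidazole was the departing group, near its share of all calls (71.1%). The collagen IV chains Col4a1 (-1.95) and Col4a2 (-2.28) passed with other shapes, since hypoxia with PBS was the departing group for Col4a1 and none was for Col4a2. The summed log2 signal of 10 markers of fibroblasts and pericytes was 40.1 to 41.8 in hypoxia with doranidazole and 44.3 to 49.4 in hypoxia with PBS. In normoxia it was 46.1 to 49.5 with doranidazole and 46.0 to 49.0 with PBS. Of the 10, 3 were dim and 1, Col3a1, which is also in the matrix list, passed the test. Col3a1 alone had a response of -4.54 in hypoxia, whereas the median response of the 10 was -0.03. Doranidazole lowered 2 of the 10 in hypoxia and raised 1, Col1a1, by 0.80 (adjusted p = 0.0094, limma). Whether other cells played a part was not tested.

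Of 33 genes of neural and glioma stem cells doranidazole lowered 18 and raised 3 in hypoxia, and lowered 2 and raised 0 in normoxia. The shares of all probe sets that differed in these comparisons were 27.7% and 1.59%. Of the 33, 18 had a more negative and 3 a more positive response in hypoxia (median -1.16), together 63.6%, against 13.5% of all probe sets. The departing group was hypoxia with doranidazole for 15 of the 21, near its share of all calls (71.1%). Sox9, a transcription factor of neural stem cells and astroglia, read 12.75, 13.02 and 13.05 in hypoxia with doranidazole, 15.70, 16.27 and 15.40 in hypoxia with PBS, 14.73, 15.00 and 14.86 in normoxia with doranidazole and 14.48, 14.87 and 14.16 in normoxia with PBS. Hypoxia with PBS was the highest and hypoxia with doranidazole the lowest group, for a difference of -3.21 (SE 0.34, adjusted p = 6.77e-05). Sox2, a pluripotency and neural stem cell factor, averaged 10.87 ± 0.74 in hypoxia with doranidazole, 14.36 ± 0.27 in hypoxia with PBS, 14.44 ± 0.22 in normoxia with doranidazole and 13.95 ± 0.31 in normoxia with PBS (SD, n = 3 each), a difference of -3.99 (SE 0.45). The inhibitor of differentiation Id3, a BMP target, had -5.13, and Id4 (-2.57), the fatty acid-binding protein Fabp7 (-4.17), the nuclear factors Nfia (-3.69) and Nfib (-1.91), the RNA-binding Musashi genes Msi2 (-2.44) and Msi1 (-1.55), and Notch1 (-1.93, lost in 5 alternatives) followed. Id1 (-1.47, lost in 8 alternatives) differed in shape, with normoxia with doranidazole as the departing group and an estimate in hypoxia of -0.54 (adjusted p = 0.2). The positive calls were the Notch ligand Dll1 (2.30), the astrocyte filament Gfap (0.94) and L1cam (0.93, lost in 7 alternatives), all with low signals, and their count was 1 with quantile or cyclic loess scaling.

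Lipid synthesis responded almost as a block. Of 19 genes of cholesterol synthesis and uptake 15 had a more negative response in hypoxia and 0 a more positive one (median -2.19), the highest share of the lists examined, and of 15 genes of fatty acid synthesis and desaturation 10 had a more negative one (median -1.76). Among all probe sets this share was 8.5%. Cholesterol genes are switched on by SREBP2 when sterols are low. The mevalonate kinase gene Mvk read 4.27, 4.43 and 3.78 in hypoxia with doranidazole, 8.68, 8.76 and 8.46 in hypoxia with PBS, 7.14, 6.91 and 6.85 in normoxia with doranidazole and 8.37, 7.23 and 7.67 in normoxia with PBS. The 3 drug-treated hypoxic arrays were the lowest by a wide margin, and the difference was -3.68 (SE 0.38, adjusted p = 5.19e-05). Not every member had this shape: the departing group was hypoxia with doranidazole for 4 of the 15, hypoxia with PBS for 4 and none for 7. Sqle, the squalene epoxidase that uses molecular oxygen, averaged 10.92 in hypoxia with doranidazole, 14.24 in hypoxia with PBS, 12.04 in normoxia with doranidazole and 12.32 in normoxia with PBS, so that with PBS hypoxia raised it by 1.93 (adjusted p = 0.0039) and with doranidazole hypoxia lowered it by an estimate of -1.12 (adjusted p = 0.01). Hmgcs1, the synthase ahead of the rate-limiting reductase, likewise read 14.36, 14.10 and 14.07 in hypoxia with doranidazole, against 17.12, 17.34 and 17.30 in hypoxia with PBS, 15.47, 15.25 and 15.07 in normoxia with doranidazole and 16.40, 14.10 and 16.09 in normoxia with PBS, where replicate 2 lay apart (difference -2.81, SE 0.62). Among the fatty acid genes, the long-chain acyl-CoA synthetase Acsl4 (-2.91), the desaturases Scd1 (-2.55) and Fads2 (-2.43) and the elongase Elovl6 (-2.58) passed. The sterol element TCACNCCAC was found in 5.56% of the promoters of the cholesterol list and in 1.03% of all promoters. This element was not particular to the list, with 7.69% (2 of 26) for glycolysis, 5.26% for heat shock and 2.94% for NRF2 targets. The hypoxia-induced and mitosis lists had 0%. In the cholesterol list the match is 1 promoter of 18, that of Hmgcs1, at chr13:119690189-119690248 on the plus strand, with the match in capitals.
Hmgcs1: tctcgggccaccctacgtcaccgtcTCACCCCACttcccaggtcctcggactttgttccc

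The second pattern was that of hypoxia with PBS as the departing group. For the 159 probe sets highest in that group, hypoxia raised the level with PBS by a median of 1.73, while with doranidazole the median of hypoxia minus normoxia was -0.37. The rule for a departing group itself requires the change with doranidazole to be smaller in size. Of these 159, 117 passed the test of hypoxia against normoxia with PBS and 44 passed it with doranidazole. The number of probe sets in which this group departs, 179 in both directions, was 327 without hypoxia PBS replicate 3, 103 and 117 without hypoxia PBS replicates 2 and 1 and 113 without normoxia doranidazole replicate 2. Of the 159, 20 belong to the lists of hypoxia-induced and glycolytic genes.

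The HIF target Car9, a carbonic anhydrase that exports acid equivalents, was the clearest of these. It read 6.88, 6.68 and 7.57 in hypoxia with doranidazole, 14.96, 15.54 and 14.41 in hypoxia with PBS, 5.42, 5.47 and 4.78 in normoxia with doranidazole and 7.13, 8.08 and 5.01 in normoxia with PBS. Hypoxia with PBS alone was high, and the drug-treated hypoxic arrays overlapped the range of PBS in normoxia. Hypoxia raised Car9 by 1.82 with doranidazole (adjusted p = 0.035) and by 8.23 with PBS (adjusted p = 2.2e-05), a difference of -6.41 (SE 0.84, 95% interval from -8.22 to -4.59, adjusted p = 0.000322). The HIF core ACGTG has 1 match in the 250 bases before its start, within chr4:43506966-43507025 on the plus strand, where the capitals mark it as read from the opposite strand. This core was present in 57.1% of the promoters of the hypoxia-induced list, in 38.5% of those of glycolysis and in 28.9% of those of all genes highest in hypoxia with PBS, against 18.3% of all promoters, 22.5% for genes that hypoxia with doranidazole raised alone and 17.8% for genes it lowered alone.
Car9: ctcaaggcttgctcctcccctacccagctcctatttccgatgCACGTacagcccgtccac

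Not every hypoxia-induced gene lost its induction. With PBS hypoxia raised 21 of 33 such genes outside glycolysis and with doranidazole 19, but for 13 the response to the drug was more negative in hypoxia (0 more positive, median -1.47), and 11 of these 13 had hypoxia with PBS as the departing group. Among all probe sets 1.98% differed between hypoxia and normoxia with PBS and 30% with doranidazole. The response to the drug was more negative in hypoxia for 8.5% of them, and hypoxia with PBS departed for 6.59% of all calls. Stc1, a secreted glycoprotein hormone, averaged 9.73 ± 0.95 in hypoxia with doranidazole, 15.64 ± 0.52 in hypoxia with PBS, 9.60 ± 0.34 in normoxia with doranidazole and 11.37 ± 0.75 in normoxia with PBS (SD, n = 3 each), a difference of -4.14 (SE 0.65). The clock repressor Bhlhe40 (-3.60), the collagen lysyl hydroxylase Plod2 (-2.58), the HIF prolyl hydroxylases Egln3 (-2.25, lost in 6 alternatives) and Egln1 (-1.85) and the MYC antagonist Mxi1 (-2.24, lost in 10) were likewise less induced with doranidazole. By contrast, the vasodilator peptide gene Adm was raised by hypoxia by 5.12 with doranidazole and by 6.19 with PBS (difference -1.06, 95% interval from -2.77 to 0.65), and the histone demethylase Kdm3a by 2.76 with doranidazole and by 2.66 with PBS (difference 0.10, interval from -0.68 to 0.88). For Vegfa the difference was -0.14, with an interval from -2.29 to 2.00 that leaves its size undetermined. Ndrg1 was also induced under both treatments (6.41 with doranidazole, 5.78 with PBS), with normoxia PBS arrays from 4.51 to 9.83 and an interval of the difference from -3.27 to 4.55.

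Glycolysis followed the same pattern. Of 17 measured genes 11 had a more negative response in hypoxia and 0 a more positive one (median -1.34), and hypoxia with PBS was the departing group for 9. The more negative share of all probe sets was 8.5%, and this group departed for 6.59% of all calls. The neuronal-type glucose transporter Slc2a3 read 12.18, 12.40 and 12.79 in hypoxia with doranidazole, 16.24, 17.13 and 15.84 in hypoxia with PBS, 13.23, 13.32 and 13.39 in normoxia with doranidazole and 13.53, 13.25 and 13.16 in normoxia with PBS. With PBS hypoxia raised it by 3.10 (adjusted p = 8e-05), while with doranidazole all 3 hypoxic arrays were below the normoxic ones, for a difference of -3.95 (SE 0.40, adjusted p = 4.94e-05). The lactate exporter Slc16a3 (-4.06), the phosphofructokinase Pfkp (-3.76), the pyruvate dehydrogenase kinase Pdk1 (-2.35) and phosphoglycerate kinase Pgk1 (-1.44) also had negative differences. With the drug, hypoxia still raised Slc16a3 by 2.66, Pdk1 by 2.40 and Pgk1 by 1.49, whereas for Pfkp this estimate of 1.14 missed the threshold (adjusted p = 0.08). Aldoc (-4.51) and the muscle phosphofructokinase Pfkm (-2.13) were instead lowered by hypoxia with doranidazole alone.

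**Figure D4:**
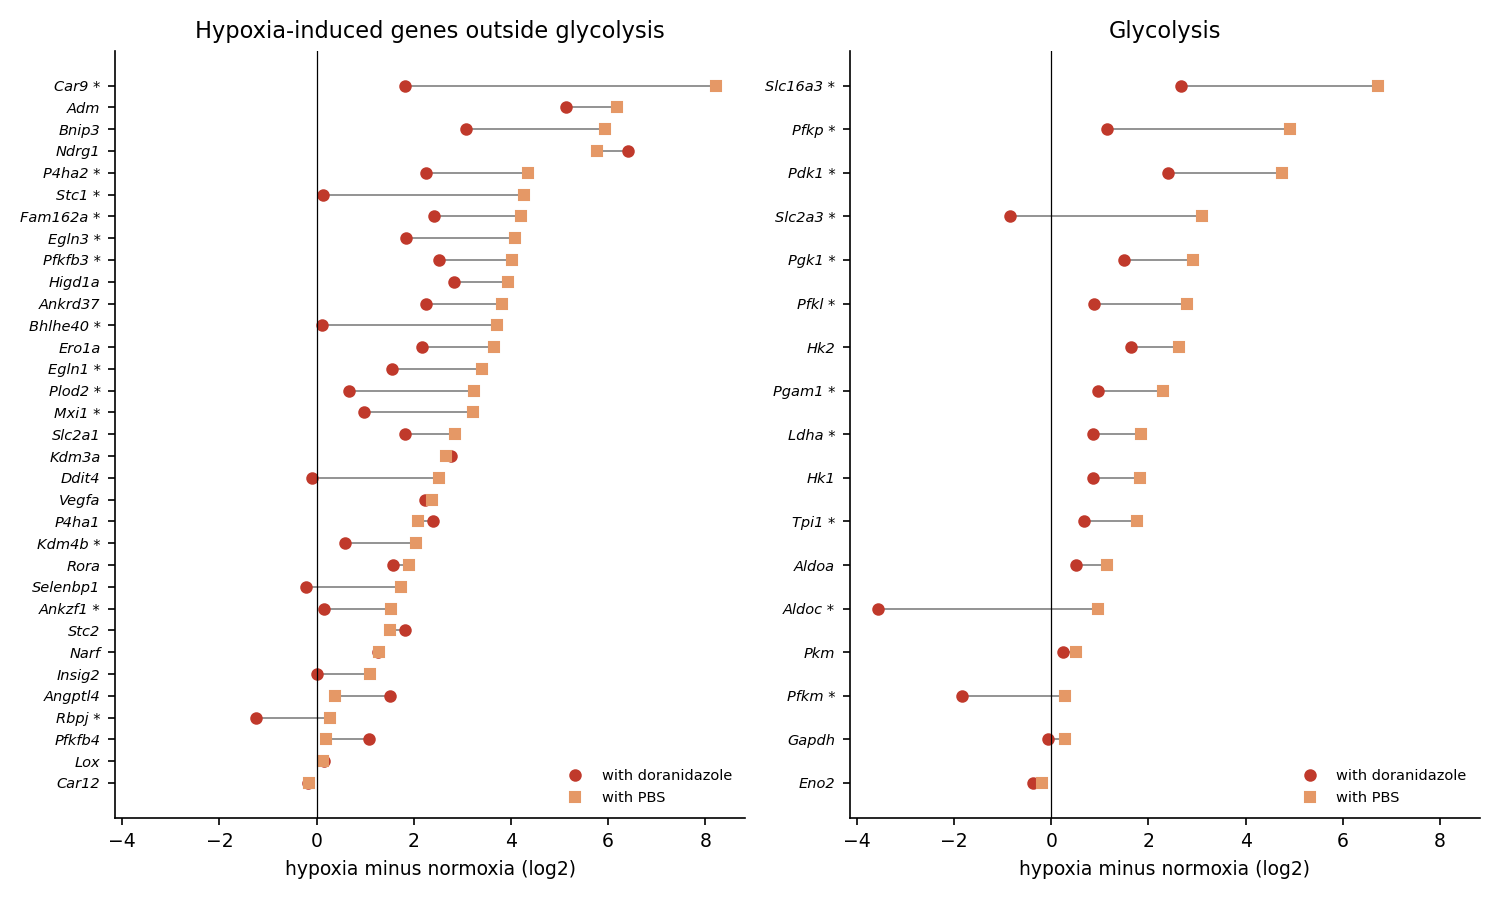
Hypoxia minus normoxia (x axis, log2) with doranidazole (circles) and with PBS (squares) for each measured gene of the lists of hypoxia-induced genes outside glycolysis (left) and of glycolysis (right), sorted by the value with PBS, with an asterisk where the difference of the 2 passes the test. Car9 falls to 1.82 with doranidazole, against 8.23 with PBS, whereas the 2 symbols of Kdm3a, Vegfa and Ndrg1 lie close together.

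Igfbp5 and Ndrg2 belong to the same class but to neither of these lists. Igfbp5, a secreted binding protein of insulin-like growth factors, had the largest difference among the genes named here. It read 6.75, 5.36 and 5.75 in hypoxia with doranidazole, 15.04, 15.22 and 13.17 in hypoxia with PBS, 10.04, 10.28 and 9.98 in normoxia with doranidazole and 9.02, 9.04 and 9.14 in normoxia with PBS. All 4 groups were separate from each other, with opposite effects of hypoxia of -4.15 with doranidazole (adjusted p = 3.1e-05) and 5.41 with PBS (adjusted p = 5.7e-05), a difference of -9.56 (SE 0.65, adjusted p = 4.49e-06). Ndrg2, a differentiation-related gene, averaged 9.43 ± 0.31 in hypoxia with doranidazole, 12.52 ± 0.84 in hypoxia with PBS, 10.35 ± 0.54 in normoxia with doranidazole and 8.33 ± 0.91 in normoxia with PBS (SD, n = 3 each), a difference of -5.12 (SE 0.66). The reverse, hypoxia with PBS as the lowest group, was found for 20 probe sets, led by the fatty acid importer of mitochondria Cpt1a (2.35, adjusted p = 0.0367, lost in 8 alternatives), the cytochrome oxidase assembly factor Cox18 (2.05, SE 0.42) and the lysosomal targeting enzyme Nagpa (1.96, SE 0.40). Cox18 read 9.95, 9.05 and 8.96 in hypoxia with doranidazole, 7.65, 7.74 and 7.55 in hypoxia with PBS, 8.18, 8.56 and 9.00 in normoxia with doranidazole and 8.86, 9.41 and 8.61 in normoxia with PBS. With PBS hypoxia lowered it by an estimate of -1.32 (adjusted p = 0.04), and with doranidazole the estimate was 0.74 (adjusted p = 0.077).

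A further, smaller class had normoxia with doranidazole as the departing group. For the 103 probe sets highest in normoxia with doranidazole the median response was -0.33 in hypoxia and 1.20 in normoxia. The rule for a departing group itself requires the larger response in normoxia here. Of the 103, 14 passed the test of the drug in hypoxia and 56 in normoxia. The count of probe sets with this departing group in either direction, 117, was 68 without replicate 1 of normoxia with PBS or of normoxia with doranidazole and 74 and 76 without hypoxia PBS replicates 3 and 1. Pdgfc, a growth factor for PDGF receptor alpha, read 4.50, 5.84 and 5.40 in hypoxia with doranidazole, 6.18, 6.80 and 6.95 in hypoxia with PBS, 9.38, 8.85 and 9.22 in normoxia with doranidazole and 5.88, 5.46 and 7.58 in normoxia with PBS. The normoxia doranidazole arrays stood above all others. Doranidazole lowered it in hypoxia by an estimate of -1.40 (adjusted p = 0.044) and raised it in normoxia by 2.85 (adjusted p = 0.013), a difference of -4.24 (SE 0.67, adjusted p = 0.00115). Slc16a4, of the monocarboxylate transporter family, averaged 4.62 ± 0.16 in hypoxia with doranidazole, 5.86 ± 0.55 in hypoxia with PBS, 8.39 ± 0.68 in normoxia with doranidazole and 5.73 ± 1.05 in normoxia with PBS (SD, n = 3 each), a difference of -3.90 (SE 0.66). The glutamate receptor subunit Gria3 (-4.01, SE 1.16, adjusted p = 0.0371) had high values on replicate 3 of every group and lost its call in 10 alternatives. The 14 probe sets lowest in this group were led by Enoph1, Eif6 and Zbtb10, with differences of 1.44, 1.39 and 1.38. Of these, Eif6 read 12.19, 12.16 and 12.09 in normoxia with doranidazole and 12.61 or more on each of the other arrays. Enoph1 and Zbtb10 lost their call in 6 and 10 alternatives.

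Only 17 probe sets had normoxia with PBS as the departing group. This count was 27 without normoxia PBS replicate 3, 40 without hypoxia PBS replicate 3, 28 without hypoxia doranidazole replicate 3 and 3 to 10 without any 1 of the other arrays except normoxia PBS replicate 2. Of the 3 named on the high side, Cenpu, a centromere protein, averaged 6.38 in hypoxia with doranidazole, 6.31 in hypoxia with PBS, 6.28 in normoxia with doranidazole and 7.93 in normoxia with PBS, so that hypoxia and drug each lowered it and together did so no further (difference 1.72, adjusted p = 0.0415). For Rcl1 (1.75) hypoxia alone had an estimate of -1.45 (adjusted p = 0.034) and drug alone one of -1.09 that missed the threshold (adjusted p = 0.12), and for the pyrophosphatase Ppa1 (1.32) neither passed, with -1.15 for hypoxia (adjusted p = 0.056) and -0.86 for drug (adjusted p = 0.17). On the low side were Maf (-2.41), Dyrk1b (-2.18) and the MAX partner Mxd4 (-1.75). Mxd4 averaged 8.04 in hypoxia with doranidazole, 8.17 in hypoxia with PBS, 8.46 in normoxia with doranidazole and 6.84 in normoxia with PBS, so that hypoxia alone (1.33, adjusted p = 0.047) and drug alone (1.63, adjusted p = 0.021) raised it, and the addition of either to the other had estimates of -0.12 for drug and -0.42 for hypoxia. Each of these 6 genes lost its call in some of the 19 alternatives: Ppa1 in 11, Cenpu in 9, Dyrk1b and Mxd4 in 3 each, Maf in 2 and Rcl1 in 1.

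The direction itself turned with oxygen for 30 probe sets that passed the threshold in both conditions. In 29 doranidazole lowered the signal in hypoxia and raised it in normoxia. Flrt2, a transmembrane ligand of latrophilins and UNC5 receptors, read 8.24, 8.24 and 8.92 in hypoxia with doranidazole, 12.62, 12.08 and 11.65 in hypoxia with PBS, 14.39, 14.43 and 13.47 in normoxia with doranidazole and 12.04, 12.62 and 12.02 in normoxia with PBS. The PBS groups overlapped and the drug groups lay on either side of them, at -3.65 in hypoxia (adjusted p = 3.7e-06) and 1.87 in normoxia (adjusted p = 0.014), a difference of -5.52 (SE 0.45). Edil3, an integrin-binding matrix protein, averaged 5.89 ± 1.04 in hypoxia with doranidazole, 8.89 ± 0.30 in hypoxia with PBS, 9.19 ± 0.48 in normoxia with doranidazole and 6.71 ± 0.72 in normoxia with PBS (SD, n = 3 each), so that it was high with hypoxia or with drug and low with neither or both (difference -5.48, SE 0.66). The single gene in the other direction was Fam107b, which doranidazole raised by 0.60 in hypoxia (adjusted p = 0.029) and lowered by an estimate of -1.01 in normoxia (adjusted p = 0.019), a difference of 1.61 (SE 0.26).

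Additive genes were sought among the 178 probe sets that passed the threshold in both conditions in the same direction. Of these, 54 also passed the test of the difference. For 37 the 95% interval of the difference lay within 1 log2 unit either way, 24 raised and 13 lowered by the drug. Klhl24, a substrate receptor of a ubiquitin ligase, read 11.80, 12.02 and 12.25 in hypoxia with doranidazole, 9.91, 10.55 and 9.80 in hypoxia with PBS, 11.75, 11.72 and 11.42 in normoxia with doranidazole and 10.05, 9.49 and 9.68 in normoxia with PBS. The drug arrays of both conditions lay together above the PBS arrays, with responses of 1.94 in hypoxia and 1.89 in normoxia and a difference of 0.04 (95% interval from -0.67 to 0.75). The macrophage growth factor Csf1 rose by 1.93 in hypoxia and 1.87 in normoxia (interval of the difference from -0.85 to 0.96) and the autophagy lipid scramblase gene Atg9b by 1.53 and 1.58 (interval from -0.83 to 0.73). On the falling side, Vars, the valyl-tRNA synthetase, fell by 1.45 in hypoxia and 1.43 in normoxia (interval of the difference from -0.84 to 0.80), and Sox3, a neural progenitor factor of the same family as Sox2, by 1.26 and 1.47 (interval from -0.49 to 0.91). With the drug Sox3 averaged 3.44 in hypoxia and 3.52 in normoxia, close to the 30th percentile of all probe sets (3.38), which limits how far a fall could be measured. Isoc1 had a difference of -0.38 (interval from -0.92 to 0.17).

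Of 34 mitosis genes the drug lowered 30 in hypoxia and 3 in normoxia, with median responses of -2.67 in hypoxia and -1.14 in normoxia. Among all probe sets 27.7% differed with the drug in hypoxia and 1.59% in normoxia, in either direction. The test of the difference was passed by 4 (11.8%, against 13.5% of all probe sets), all negative, and the median difference was -1.44 over all arrays and -0.79 without hypoxia PBS replicate 3. The kinesin gene Kif11 read 7.26, 7.79 and 7.08 in hypoxia with doranidazole, 11.32, 10.15 and 12.71 in hypoxia with PBS, 11.61, 11.90 and 11.79 in normoxia with doranidazole and 13.35, 12.87 and 13.09 in normoxia with PBS. Hypoxia with PBS spread over more than 2 log2 units, replicate 3 being the highest, and the difference was -2.68 (SE 0.65, adjusted p = 0.0164). Without hypoxia PBS replicate 2 the count of 4 was 14, it was 7 once array medians were equalized or with dim probe sets left out, and it was 1 or 2 with quantile or cyclic loess scaling or without replicate 1 or 2 of normoxia with PBS, any normoxia doranidazole array or hypoxia doranidazole replicate 2. Of 32 DNA replication genes doranidazole lowered 12 and raised 2 in hypoxia, and lowered 2 in normoxia. The median response was nevertheless -0.71 in hypoxia and -1.15 in normoxia, so that the estimated fall was not larger in hypoxia. The median difference was 0.47. The difference passed for 2 (6.25%, against 13.5% of all probe sets), both more positive in hypoxia: the licensing factor Cdt1 (2.82, SE 0.50) and Orc1 (2.04, SE 0.55, lost in 7 alternatives). This count was 7 without hypoxia PBS replicate 3, 4 with array weights, and 1 without replicate 1 or 3 of normoxia with PBS, 1 or 2 of normoxia with doranidazole, 1 or 2 of hypoxia with PBS, or 2 of hypoxia with doranidazole. Cdt1 averaged 12.19 in hypoxia with doranidazole, 9.92 in hypoxia with PBS, 10.88 in normoxia with doranidazole and 11.43 in normoxia with PBS, so that the drug raised it in hypoxia by 2.28 (adjusted p = 0.00038). The cell cycle homology region TTTGAA of late cell cycle promoters was found in 27.6% (8 of 29) of the promoters of the mitosis list, against 13.8% of all promoters. It was not particular to this list, with 23.5% (8 of 34) for NRF2 targets and 19.2% for glycolysis. The hypoxia-induced, heat shock and cholesterol lists had 5.71%, 5.26% and 5.56%. The motif lies close before the start of Kif11 (chr19:37376322-37376381, plus strand), with capitals for the match on the opposite strand.
Kif11: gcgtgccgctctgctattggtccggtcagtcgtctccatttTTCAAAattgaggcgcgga

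The last lists are of respiration, the pathway that consumes oxygen. With doranidazole, hypoxia lowered 26 of 35 nuclear-encoded subunits of complex I and 17 of 21 genes of complex II and the tricarboxylic acid cycle. With PBS it lowered 0 of either past the threshold, in a comparison that 1.98% of all probe sets passed, against 30% with doranidazole. The estimates with PBS also leaned down. The median of hypoxia minus normoxia was -0.44 and -0.45 for the 2 lists with PBS, against -0.84 and -1.05 with doranidazole. The response to the drug was more negative in hypoxia for 4 complex I genes (11.4%, against 13.5% of all probe sets in either direction) and for 4 of the other list (19%), and more positive for 0 of either. The median differences were -0.48 for complex I and -0.56 for the other list, and with cyclic loess scaling -0.24 and -0.33. These counts were 8 and 9 without hypoxia doranidazole replicate 3, and the complex I count was 2 with quantile scaling. The core subunit gene Ndufs1 read 8.96, 9.15 and 8.91 in hypoxia with doranidazole, 10.35, 10.04 and 10.80 in hypoxia with PBS, 11.23, 11.12 and 11.20 in normoxia with doranidazole and 10.90, 11.34 and 11.06 in normoxia with PBS, a difference of -1.47 (SE 0.29, adjusted p = 0.00439). The mitochondrial isocitrate dehydrogenase Idh2 (-1.48), the Idh3g subunit (-1.55) and the cytosolic malate dehydrogenase Mdh1 (-1.58), which the list also holds, were similar in size. Of the 4 subunits of succinate dehydrogenase, Sdha was near the threshold (-1.54, interval from -2.57 to -0.52, adjusted p = 0.0472) and lost its call in 13 alternatives, whereas Sdhb (-0.43, interval from -0.93 to 0.06), Sdhc (-0.53, interval from -1.20 to 0.15) and Sdhd (0.10, interval from -0.77 to 0.96) did not pass.

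**Figure D5:**
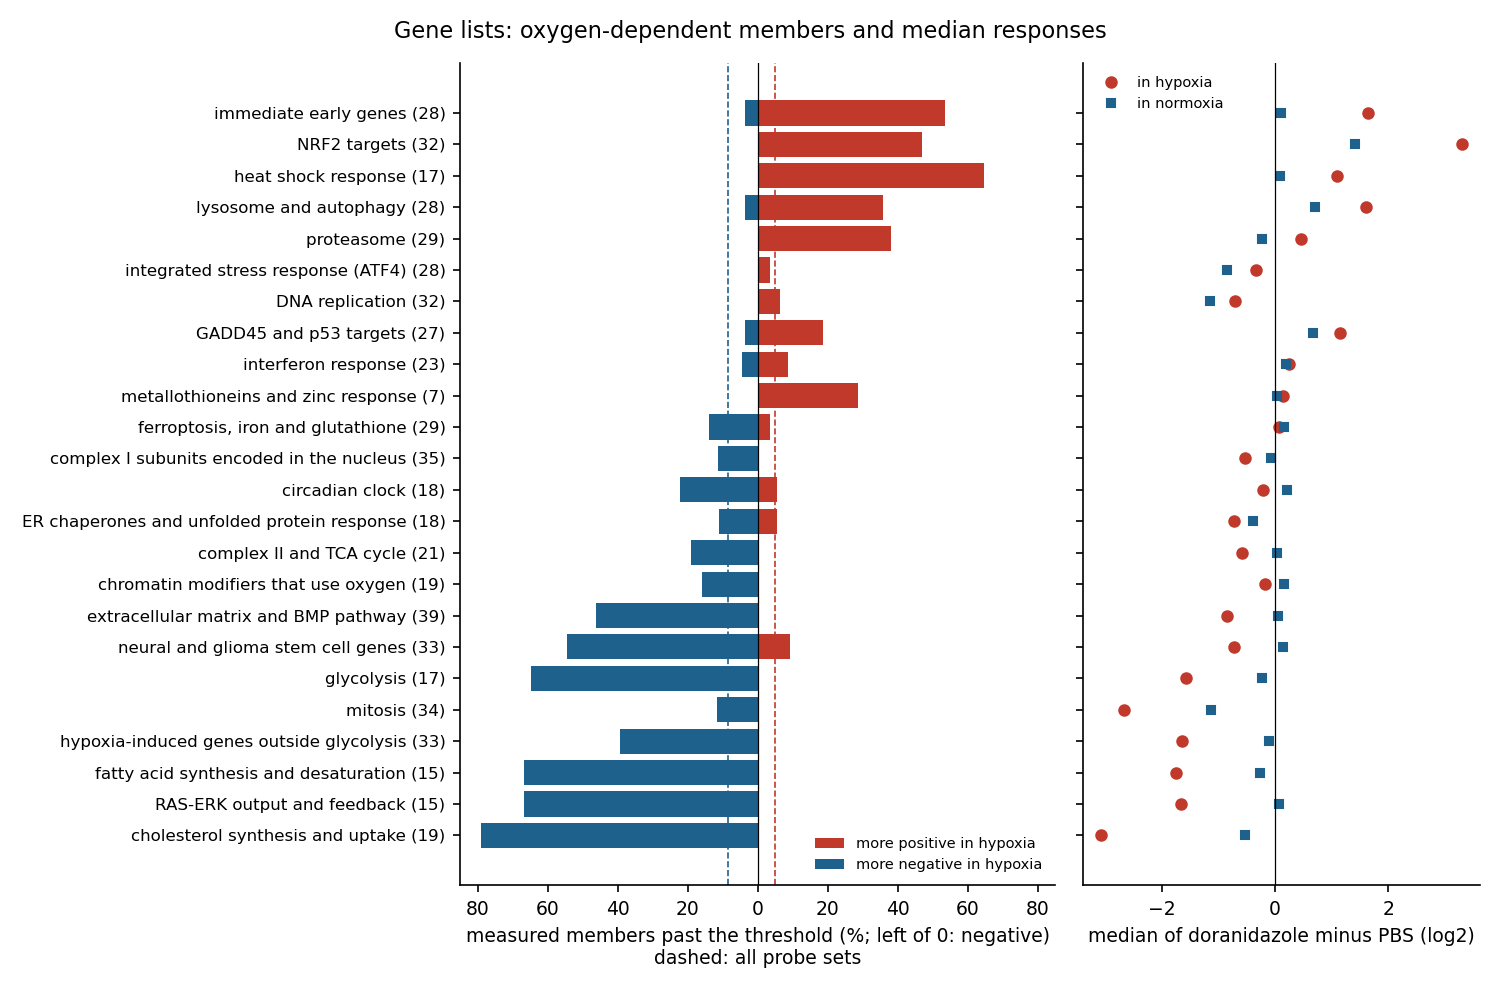
Left, percent of the measured members of each list (number in brackets) whose response was more positive (right of 0) or more negative (left of 0) in hypoxia, with dashed lines at 5.02% and 8.5% of all probe sets and lists ordered by their median difference; right, median of doranidazole minus PBS (x axis, log2) in hypoxia (circles) and in normoxia (squares). Cholesterol synthesis, RAS-ERK output and fatty acid synthesis lie at the negative end and immediate early genes, NRF2 targets and heat shock at the positive end.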

How the data were processed

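Gene expression of GSC-H cells was measured on 12 Clariom S Mouse arrays, 3 for each of 4 groups, which were taken from the sample labels. The authors deposited 1 table of log2 signals per probe set, made with Transcriptome Analysis Console; the summarization, the scaling between arrays and the test are not stated in the sources. These log2 values as deposited, which run from 1.77 to 19.4, were used as they are, no 2 arrays of the 66 pairs were identical, and a microarray has no read depth, so that the 3 arrays per group limit the precision. Gene symbols came from the platform annotation and were all found in RefSeq.

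A model with 4 group means was fitted to all 22206 probe sets with limma (version 3.58.1, R 4.3.3), and the contrast of the response in hypoxia minus the response in normoxia was tested two-sided with Benjamini-Hochberg adjustment over all probe sets at 0.05. The same fit gave the 4 single differences, each adjusted on its own over all probe sets. The script was tested on simulated data. Genes named were the 3 with the largest difference in each departing class and direction whose arrays do not overlap the others, up to 3 of opposite response and 3 additive ones in each direction, the 2 with the smallest p in each of 29 gene lists, 9 genes that the study discusses, and 79 further list members given as examples. Cd44 and Vim were named besides, as a check of the cells. The genes and lists were chosen with earlier results of these data known. Of 668 listed symbols 621 were matched by symbol, 1 by synonym and 46 had no value. No set test was run. Over all probe sets 13.5% passed, 5.02% in the positive and 8.5% in the negative direction, and the median difference was 0.10. Counts and medians of a list are to be read against these values. Promoters (250 bases before the start) came from RefSeq GRCm38.p6 and were found for 15691 genes, both strands were searched, and the stretches shown, 1 member of each motif's own list, were chosen after values and matches were seen. Alternatives were quantile, median and cyclic loess scaling, dim probe sets (mean under the 30th percentile, 3.38) left out, a trended robust prior, array weights, a replicate block, each array left out, and other rules for a departing group.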

Additional observations from a re-analysis of the deposited data

Results flagged for a closer look

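The response to doranidazole differed between hypoxia and normoxia, by the test of the difference itself (limma, adjusted p), for 2717 probe sets, 966 in the positive and 1751 in the negative direction. Among the genes in which hypoxia with doranidazole departs, the differences were 8.42 for Gadd45b, 8.10 for Tlcd2, 7.86 for Gsta2, -8.60 for Grem1, -6.49 for Adgrl3 and -5.95 for Nlgn1. Where hypoxia with PBS departs they were -9.56 for Igfbp5, -6.41 for Car9, -5.12 for Ndrg2, 2.35 for Cpt1a, 2.05 for Cox18 and 1.96 for Nagpa. Where normoxia with doranidazole departs they were -4.24 for Pdgfc, -4.01 for Gria3, -3.90 for Slc16a4, 1.44 for Enoph1, 1.39 for Eif6 and 1.38 for Zbtb10. Where normoxia with PBS departs they were 1.75 for Rcl1, 1.72 for Cenpu, 1.32 for Ppa1, -2.41 for Maf, -2.18 for Dyrk1b and -1.75 for Mxd4. The responses of Fam107b (1.61), Flrt2 (-5.52) and Edil3 (-5.48) had opposite signs in the 2 conditions.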

How the results depend on the processing

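The alternatives were followed for 174 genes named or chosen by the rule, 150 of them past the threshold, and not for Cd44 and Vim. Of 3301 values for these genes 3010 kept their direction and side of the threshold, 229 lost the call and 8 gained one. The sign changed in 54 values of 11 of the 24 genes not past the threshold, with no call, and in 0 values of the 150. The total of 2717 calls was 2663, 2686 and 2632 with quantile, median and cyclic loess scaling, of which 2151, 2491 and 2266 were shared with the deposited scale, 0 of them with another sign. The positive share was 35.6% on the deposited scale, 47.9% with quantile, 27.6% with median and 44.5% with cyclic loess scaling. Setting the medians equal shifted the median difference of all probe sets by -0.112.

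With 1 array left out, all calls ranged from 1975 to 3873, positive calls from 653 to 1455 and probe sets in which a group departs from 1466 to 2904 (hypoxia doranidazole), 103 to 327 (hypoxia PBS), 68 to 169 (normoxia doranidazole) and 3 to 40 (normoxia PBS). Opposite responses ranged from 3 to 73 and same-sign responses smaller in hypoxia from 5 to 30. With a gap over 2 times the range, hypoxia PBS departed for 79, normoxia doranidazole for 45 and normoxia PBS for 6, and by which of the 4 differences pass, for 94, 54 and 5. Array weights gave 46 probe sets for normoxia PBS, 126 opposite responses and 33 smaller ones, and cyclic loess gave 24 smaller ones.

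Each array was taken as its deviation from the mean of its group. These deviations of same-numbered arrays correlated over 0.1 in 10 of 18 pairs, among them the 3 between the normoxia groups (0.202, 0.329 and 0.326). Hypoxia PBS replicates 2 and 3 also did, at 0.264 and 0.356 with normoxia PBS and 0.159 and 0.292 with normoxia doranidazole. Replicate 1 did not (-0.0205 and -0.0123). In 20 of 36 comparisons an array correlated best with its own number, out of the 3 arrays of the other group. Since 8 pairs were not over 0.1, the numbers were not used as a pairing. With a replicate block there were 2977 calls, 48 opposite responses and 24 smaller ones. The part of the unknown scaling, and the causes of these shifts, were not tested. Low signal limits what can be seen, since of 8244 probe sets that averaged under 4 on the other 9 arrays 227 were called positive and 18 negative.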

Other observations

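Of 18 circadian clock genes 4 had a more negative response in hypoxia and 1 a more positive one (limma, adjusted p). Together this was 27.8%, against 13.5% of all probe sets. The output genes Dbp and Per3 were highest in normoxia with doranidazole: Dbp averaged 12.03 in hypoxia with doranidazole, 12.35 in hypoxia with PBS, 14.94 in normoxia with doranidazole and 12.73 in normoxia with PBS (difference -2.53, SE 0.72, lost in 7 alternatives), and Per3 had a difference of -1.97 (SE 0.40). The nuclear receptor Nr1d2 went the other way (1.54, SE 0.26). The count of 4 was 2 without replicate 1 or 3 of normoxia with PBS, 2 of normoxia with doranidazole, 2 of hypoxia with PBS or 1 of hypoxia with doranidazole. Of 19 chromatin modifiers that use oxygen 3 passed (15.8%, near the 13.5% of all probe sets): Kdm5b (-2.22), Tet1 (-1.96) and Kdm4b (-1.47). Each had hypoxia with PBS as the departing group. Without hypoxia PBS replicate 3 or with array weights the count of 3 was 5. Tet1 lost its call in 4 alternatives. Kdm4b lost its call with quantile scaling.

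Among 27 GADD45 and p53 target genes doranidazole raised 16 in hypoxia and 10 in normoxia, where 27.7% and 1.59% of all probe sets differed in either direction. The test of the difference was passed by 5 in the positive direction: besides Gadd45b these were Gadd45g (3.44), the kinase Plk3 (2.84), Ddit4l (1.81) and Tigar (1.01, lost in 13 alternatives), while Trp53i11 (-2.79) was negative. Of 28 genes of the ATF4 branch of the integrated stress response 1 passed, the eIF2 alpha phosphatase subunit Ppp1r15a (4.69, SE 0.92), and the median of that list depended on single arrays: it was 0.50 over all arrays, -0.26 and 1.20 without normoxia PBS replicates 2 and 3, -0.02 and 1.30 without replicates 3 and 2 of normoxia with doranidazole, and 0.02 without hypoxia PBS replicate 3. With array weights it was 0.22. Of 18 genes of the endoplasmic reticulum response, the cochaperone Dnajb9 (2.89) was positive and Xbp1 (-1.94) and Pdia6 (-1.27) negative. The VEGF receptor Flt1, listed as an endothelial marker, averaged 7.00 in hypoxia with doranidazole, 11.20 in hypoxia with PBS, 8.84 in normoxia with doranidazole and 8.69 in normoxia with PBS (difference -4.35, SE 0.45), with 4 of the 9 endothelial markers dim, and Pecam1 had a difference of 1.47 that was lost in 11 alternatives. Cnp, of the oligodendrocyte list, had a difference of -3.74 with 6 of 7 markers dim. Of 10 neuronal markers Gad2 (-2.29) and the neurofilament Nefl (-1.82) were negative. In the remaining lists, 2 of 23 interferon genes were positive (Irf1 at 1.62 and Rsad2 at 1.15, which lost its call in 14 alternatives) and 1 was negative (Ifi27, -3.35), and the positive count was 1 in most alternatives. Of 29 genes of ferroptosis, iron and glutathione, Gss was positive and Acsl4, Lpcat3 (-1.82), transferrin (Trf, -1.82) and Gch1 (-1.77) were negative. Of 7 metallothionein and zinc genes Mtf1 (1.08) and Slc30a1 (1.54) were positive, and this count was 0 without normoxia PBS replicate 2 or 3, without replicate 1 or 2 of normoxia with doranidazole, without hypoxia PBS replicate 2 or once array medians were equalized. The share past the test in either direction was 13% for interferon, 16.7% for the endoplasmic reticulum and 17.2% for ferroptosis, near the 13.5% of all probe sets. It was 22.2% for GADD45 and p53, 3.57% for ATF4 and 28.6% for zinc. For endothelial, neuronal and oligodendrocyte markers it was 22.2%, 20% and 14.3%.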
